A study of Schmidtea mediterranea with 152 samples.

Results

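The uninjured tail cells of an asexual planarian, Schmidtea mediterranea (strain CIW4), were compared here between posterior pole muscle and non-pole muscle. The animals were starved, their midline tail tips were cut out, and viable non-dividing cells were sorted 1 per well, so that each library is 1 cell. Each well's amplified cDNA was tested by qRT-PCR for collagen and wnt1, and wells positive for both were taken as pole cells while wells with collagen and no wnt1 were taken as non-pole muscle. The labels give 7 uninjured pole and 65 uninjured non-pole libraries, 72 in all, while the other 80 libraries of the series come from regenerating tails and were not used. All cells were uninjured and of the same strain, all descriptions hold 1 shared code whose meaning is not stated, and no label names an animal or a plate, so it is not known how many animals the 7 pole cells came from.

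The posterior pole is a small set of muscle cells at the tail tip midline. Planarian muscle makes the body's collagen and also secretes the position signals by which other tissues know where they are, and the posterior pole is the source of wnt1, a Wnt ligand that marks the tail end. The transcription factors pitx and islet1 are known in regenerating planarians to be needed for posterior wnt1 expression.

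Since the groups were set by the qRT-PCR, its primers define what a pole cell is in these data. The primers are shown from the study's supplementary primer sheet, 5′ to 3′, with the last 5 bases at the 3′ end, from which the polymerase extends, in capitals.
wnt1 forward: gtgacattatgctcaaaggaTTTCC
wnt1 reverse: acggacagtgtgataacttAAACG
collagen forward: ggtgtacttggagacgttgGTTTA
collagen reverse: ggtctaccttctcttcctGGAAC
The wnt1 pair is 25 and 24 bases long with 40% and 41.7% G or C, and the collagen pair is 24 and 23 bases long with 45.8% and 52.2%. Because wnt1 was used to choose the pole cells and collagen to choose all cells, their levels in the reads are a check of the labels and not a finding.

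After 6 pairs of near-identical non-pole libraries were each summed to 1 cell and 6 non-pole libraries with under 50000 reads were left out, 7 pole and 53 non-pole cells remained. A near-identical pair differed by a chi-square of 1.28 to 7.40 per degree of freedom, while any other pair differed by at least 23.7 and any pair of pole cells by at least 118.8. Pole libraries held 1310328 to 5899108 counted reads and non-pole libraries 26317 to 5433037, of which the transcripts used here took 84813 to 4132918 per pole cell (median 648498) and a median of 444246 per non-pole cell. Levels are counts scaled to 1000000 of those reads (CPM), so they compare cells and not genes of different length, and a cell is said to hold a transcript at 20 CPM or more. Cells are not replicates of an animal, so each group counts as 1 sample, no test across cells was made, and the 95% Clopper-Pearson intervals of shares cover counting error only. The molecules carry no identifiers, and an amplified read is therefore not an independent molecule. Pole cell numbers name cells in accession order and carry no rank.

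The wnt1 reads followed the screen, with exceptions in both groups. In pole cells 1 to 7, wnt1 was at 23.6, 1474, 2844, 586, 2667, 185 and 993 CPM. Among the 53 non-pole cells it had a read in 6 and was held by 3, at 224, 49.6 and 26.3 CPM in the cells labelled non-pole replicates 5, 8 and 13. Pole cell 1 stood apart from the other pole cells: its wnt1 level rests on 2 reads, it was below all 3 of those non-pole cells, and its summed collagen level was 472 CPM against 18122 to 63472 CPM in the other pole cells. Every level of 23.6 CPM given below for pole cell 1 is likewise 2 reads, which is enough there to hold a transcript. The transcripts used took 4.70% of this cell's reads, whereas the contigs dd_4 and dd_7, which were left out of totals, took 38.98% and 53.7%. The labels give more uninjured libraries of both groups than the study describes using, and the sources used here do not say which ones it left out. Pole cell 1 stayed in because its label names it a pole cell, and the counts without it are given beside the results.

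A transcript was called higher or lower in pole cells when the share of cells holding it differed by at least 40 percentage points and the mean CPM plus 1 by at least 2-fold in the same direction. Of 18077 transcripts with at least 20 reads over the kept cells, 0.592% were called higher in pole cells and 0.586% lower. With only 7 pole cells a share moves in steps of 14.3 percentage points. The exact intervals of the pole and non-pole shares did not overlap for 32 of the higher transcripts and did for the other 75. They did not for 10 of the lower transcripts and did for the other 96. Over all transcripts with enough reads, they did not overlap for 33 of 5761 with the larger share in pole cells. With the smaller share there, it was 10 of 11494. The interval of 0 of 7 cells already reaches 40.96%, so these counts do not compare the 2 directions. Without pole cell 1, 1.00% of 18067 transcripts (181) were called higher, which include 93 of the higher transcripts above. Those called lower were 0.592%, which include 95 of the lower ones. The values just inside and just outside the limit were 40.2 and 39.6 percentage points for higher transcripts and -40.4 and -39.6 for lower ones.

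**Figure D1:**
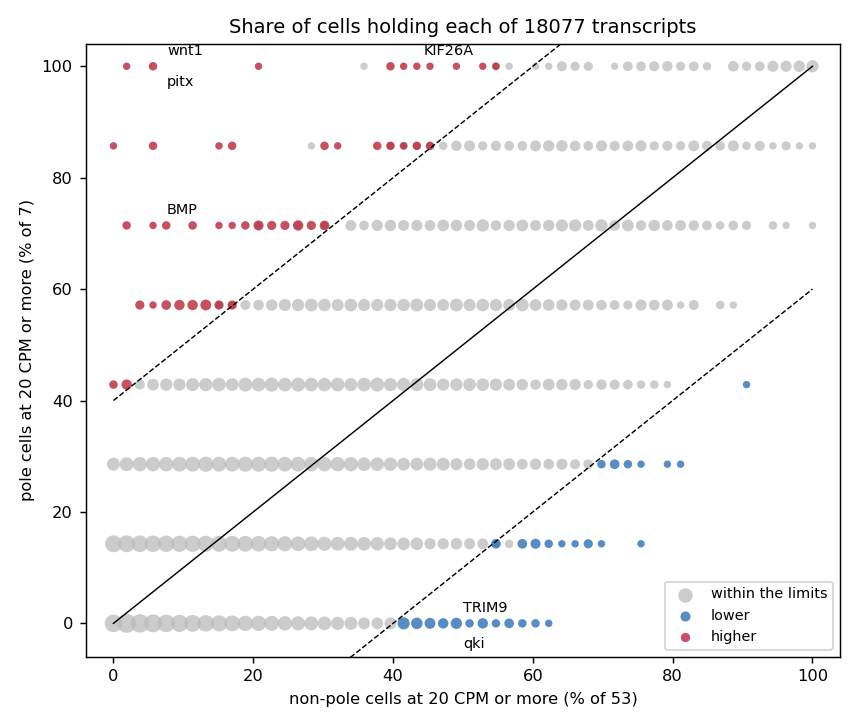
Share of the 7 pole cells (vertical axis, %) against share of the 53 non-pole cells (horizontal axis, %) at 20 CPM or more, for 18077 transcripts; a larger point stands for more transcripts at the same pair of shares, the solid line marks equal shares and the dashed lines a difference of 40 percentage points. The higher transcripts (0.592%) lie in the upper left, with pitx and wnt1 at 100% of pole cells and 5.66% of non-pole cells, and the lower ones (0.586%) at the lower right, 72 of them at 0% of pole cells.

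The higher transcripts were shared by many but seldom by all of the pole cells. Of the higher transcripts, 12 were held by all 7 pole cells, 18 by 6, 35 by 5, 34 by 4 and 8 by 3, and 33 were held by at most 10% of the non-pole cells. Pole cells 2 to 7 each held 74 to 84 of the higher transcripts other than wnt1 and pole cell 1 held 47, against 2 to 43 (median 19) per non-pole cell, as the choice of these transcripts requires. The median log2 fold of all 18077 transcripts was -0.96, where 6632 had no read in any pole cell and 267 none in any non-pole cell. For the 1009 transcripts held by 50% or more of the kept cells it was 0.07.

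Over the whole transcriptome pairs of pole cells were about as alike as other pairs of cells. Pearson's r of log2(CPM + 1) across the 18077 transcripts had a median of 0.298 over the 21 pairs of pole cells, from 0.183 to 0.390. It had a median of 0.279 over the 371 pairs of a pole with a non-pole cell and 0.292 over the 1378 pairs of non-pole cells. These values are descriptions, since every pair shares cells with other pairs and depth differs between cells.

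Among transcription factors, pitx had the largest difference. This gene, a homeobox gene of posterior pole cells, was at 35.4, 293, 511, 1030, 820, 62.7 and 584 CPM in pole cells 1 to 7. It was held by 7 of 7 pole cells (interval 59.04% to 100%) and by 3 of 53 non-pole cells (5.66%, 1.18% to 15.7%), whose highest level was 61.3 CPM. Thus 6 of the 7 pole cells were above every non-pole cell, and pole cell 1, at 3 pitx reads, was within the range of the non-pole cells. The log2 fold of pitx was 6.90, and 1 of the 3 non-pole cells that held pitx also held wnt1.

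islet1, a LIM homeobox gene, split the pole cells. It was at 0, 1002, 0, 4.21, 1151, 204 and 0 CPM, so pole cells 2, 5 and 6 held it and the others did not. Only non-pole replicate 6 held it among the 53, at 435 CPM, and that cell also had 2 wnt1 reads. The intervals of the shares, 9.90% to 81.6% and 0.0478% to 10.1%, overlap, and the call is lost when any of pole cells 2, 5 or 6 is left out.

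The homeobox gene otxb-like was held by pole cells 2 to 5, at 780, 162, 221 and 148.8 CPM, and had no read in the others. It was held by 5.66% of non-pole cells, up to 201 CPM, with a log2 fold of 4.70. myoD, whose vertebrate relatives set muscle cell fate and which in planarians is needed for longitudinal muscle fibres, was held by 5 of 7 pole cells and by 4 of 53 non-pole cells. Its levels in pole cells 1 to 7 were 23.6, 2184, 2.31, 1022, 0, 214 and 108.4 CPM, and only pole cell 2 was above the highest non-pole cell, at 1188 CPM. SOXP-2, a Sox family gene, was held by 71.4% of pole cells and 18.9% of non-pole cells, with overlapping intervals. Of 25 transcription factor contigs with enough reads, these 5 were called higher and none lower, at a list median log2 fold of -0.59, near the -0.96 of all transcripts. nr4A, the nuclear receptor gene that the study follows elsewhere, was held by pole cells 4 and 5 and by 14 of 53 non-pole cells, and its log2 fold of 0.83 came with shares of 28.6% and 26.4%.

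**Figure D2:**
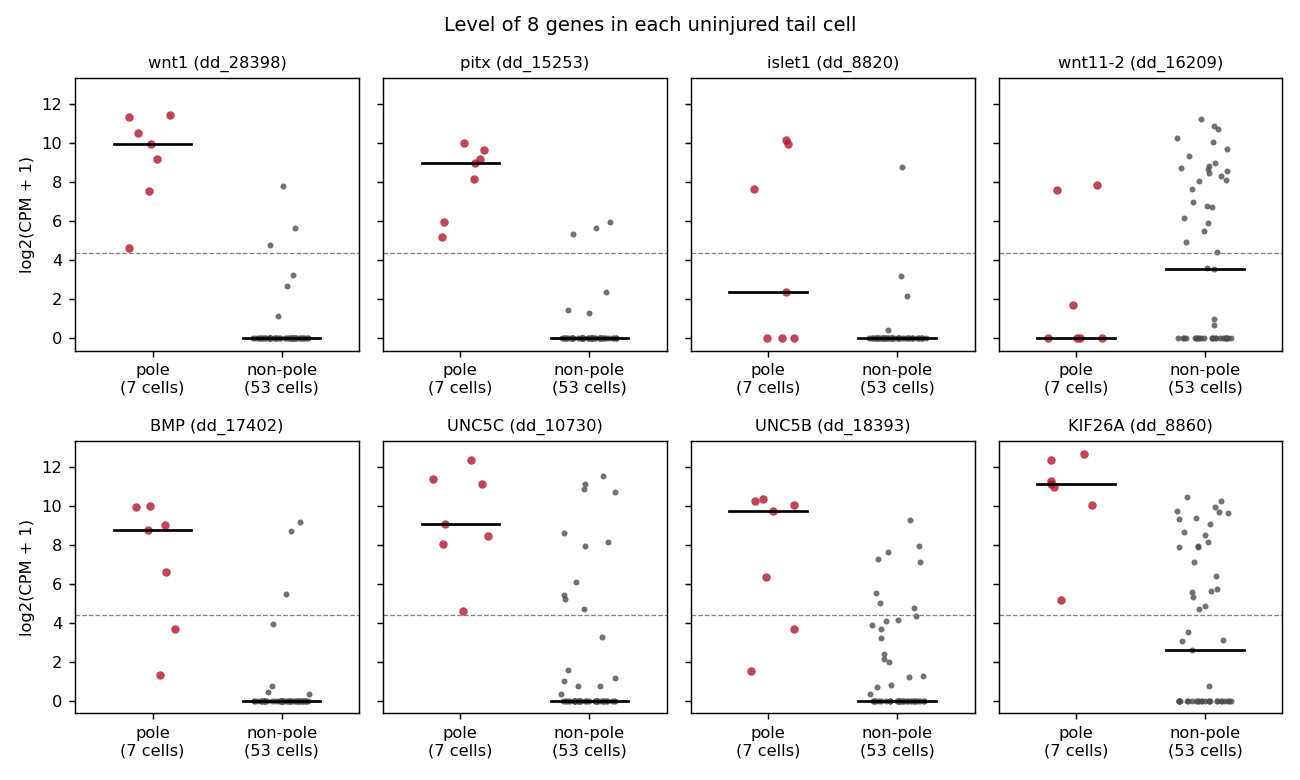
Level of 8 genes, as log2(CPM + 1), in each of the 7 pole cells (red) and 53 non-pole cells (grey); bars mark medians and the dashed line marks 20 CPM. pitx was above every non-pole cell in 6 of 7 pole cells, islet1 was held by 3 of 7, and wnt11-2 went the other way, held by 2 of 7 pole cells and 25 of 53 non-pole cells.

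The Wnt genes as a group did not move one way. Of 13 members with enough reads, wnt1 and NLK-1 were called higher and ror lower, and the list median was 0.04. The call of wnt1 was fixed by the screen, and the median of the other 12 was -0.67, near that of all transcripts. NLK-1, a Nemo-like kinase of the family that acts on Wnt-regulated transcription factors, was held by all 7 pole cells, at 82.5 to 2760 CPM with a median of 606, and by 49.1% of non-pole cells, up to 2474 CPM. Its ranges overlap almost throughout and its log2 fold was 2.25. The frizzled receptor Frz-d was also held by all 7 pole cells, at 624.9 to 3371 CPM, but 77.4% of non-pole cells held it too and it was not called, at a log2 fold of 0.86.

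wnt11-2, a Wnt ligand of the tail midline, was held by a smaller share of pole than of non-pole cells and was not called. Pole cells 2 and 4 held it, at 194 and 232 CPM, and 25 of 53 non-pole cells held it, up to 2466 CPM (shares of 28.6% and 47.2%, log2 fold -2.10). The 2 Wls contigs, which encode the carrier that brings Wnt ligands to the cell surface, were held by 5 and 4 of 7 pole cells and by 39.6% and 24.5% of non-pole cells. Neither was called, and contigs of the same name may share reads.

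ror, a receptor tyrosine kinase of a family that binds Wnt ligands, had no read in any of the 7 pole cells. It was held by 22 of 53 non-pole cells (41.5%, 28.1% to 55.9%), up to 1678 CPM. With ror set at 3 reads over the pooled pole reads, it would be 794-fold lower in pole cells, which is not a bound. The interval of 0 of 7 cells reaches 40.96% and overlaps that of the non-pole cells. The call is lost when cells are thinned to 50000 reads, under TMMwsp scaling, a trimmed-mean correction of totals for sparse counts, and with all counted reads as the total.

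Of 13 guidance contigs with enough reads, 3 for receptors of the cue netrin were called higher and none lower, beside 0.592% of all transcripts called higher. Of the 13, 8 had a lower mean in pole cells. UNC5C (contig dd_10730), a netrin receptor, was at 23.6, 535, 261, 358, 2712, 5208 and 2225 CPM in pole cells 1 to 7. It was held by all 7 pole cells and by 11 of 53 non-pole cells (20.8%, 10.8% to 34.1%), and 4 non-pole cells were above the pole median, so the ranges overlap. netR, a planarian netrin receptor gene, was at 23.6, 1093, 4.62, 392, 3159, 3346 and 2354 CPM, held by 6 of 7 pole cells and 16.98% of non-pole cells.

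The levels of netR and dd_10730 followed each other over the pole cells except in pole cell 3, which held dd_10730 at 261 CPM and had netR at 4.62 CPM. UNC5B, a further netrin receptor, was at 11.8, 1076, 1308, 82.1, 1233, 863 and 1.92 CPM, and 4 pole cells were above the highest of the 53 non-pole cells, at 622 CPM. Its log2 fold was 4.42, beside 3.45 for netR and 3.12 for dd_10730. All of these 3 receptors were held together by 4 of 7 pole cells and by 1 of 53 non-pole cells, while 19 non-pole cells held at least 1 of them.

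The other 10 guidance contigs were not called. dcc, also a netrin receptor gene, was held by all 7 pole cells (23.6 to 1719 CPM) but also by 67.9% of non-pole cells, at a log2 fold of 1.81. The ligand NTN1, a netrin, had 2 reads in pole cells, in pole cell 6, and was held by 14 of 53 non-pole cells. slit1, a midline ligand, had no read in pole cells and was held by 10 of 53 non-pole cells. The list median was -3.46, below that of all transcripts, and 7 of the 13 contigs, all 4 for Eph receptors among them, were held by no pole cell.

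Among other signals, a BMP ligand was called higher. BMP (dd_17402) was at 11.8, 1008, 437, 531, 98.5, 1031 and 1.54 CPM in pole cells 1 to 7, held by 5 of 7 (71.4%, 29.04% to 96.3%) and by 3 of 53 non-pole cells (5.66%, 1.18% to 15.7%). Pole cells 2 and 6 were above the highest non-pole cell, at 587 CPM, and the log2 fold was 4.40. None of the other 7 BMP and activin genes was called, and the list median was 0.86.

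Both Notch ligands of the Notch list were called higher, with overlapping intervals. JAG1 was held by pole cells 2, 3, 4 and 6, at 438 to 1410 CPM, and by 11.3% of non-pole cells. DLL1 was held by pole cells 2, 3, 5 and 6, at 127.5 to 1614 CPM, and by 13.2% of non-pole cells, up to 4756 CPM. The receptors NOTCH1 and NOTCH2 were not called, and NOTCH2 had no read in pole cells. Between them the ligands were held by 5 of 7 pole cells and 12 of 53 non-pole cells. These are fragile calls, since leaving out single pole cells ends that of JAG1 in 4 cases and that of DLL1 in 4 cases. The call of DLL1 is also lost on thinning to 50000 reads and with reads summed over a group.

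FGFR4, a receptor for fibroblast growth factors, was at 0, 995, 2225, 916, 32.2, 343 and 134.9 CPM, held by 6 of 7 pole cells and 41.5% of non-pole cells at a log2 fold of 2.25. The call is lost when cells are thinned to 50000 reads or the low-collagen non-pole cells are left out. The other 3 contigs of the family were held by no pole cell. kallmann1, a gene for a secreted extracellular protein of the anosmin type, was at 0, 103.3, 2703, 25.3, 945, 0 and 256 CPM, against 20.8% of non-pole cells that held it, and its call is lost on thinning and under TMMwsp scaling. dd_20026, a contig without a gene name, was held by 5 of 7 pole cells and 7.55% of non-pole cells at a log2 fold of 4.65. Of 9 genes that the study's text names for the anterior or the posterior pole, kallmann1 and dd_20026 were called higher and ror lower. ror is not on the study's list of posterior pole transcripts, and the genes in the text were chosen in part on these cells.

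KIF26A, a gene for an atypical kinesin, was read at a higher level in most pole cells than in any non-pole cell. It was at 35.4, 6658, 5358, 2281, 2472, 2028 and 1051 CPM, and 5 of the 7 pole cells were above the highest of the 53 non-pole cells, at 1393 CPM. It was also held by 43.4% of non-pole cells, so it differed more in level than in presence, with a mean of 2841 CPM against 194 CPM and a log2 fold of 3.87. LHFP, a membrane protein gene of the tetraspan type, was held by 6 of 7 pole cells (53.4 to 1929 CPM) and by 3 of 53 non-pole cells, 1 of which was at 2357 CPM, above every pole cell.

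The protocadherins, which are cell adhesion molecules, moved unequally. PCDH1 was held by 5 of 7 pole cells and 1.89% of non-pole cells at a log2 fold of 4.93, and PCDH11Y (dd_15362) by 4 of 7 and 3.77% at 6.12. All 4 of the pole cells with dd_15362 were above the highest non-pole cell, at 33.1 CPM. The other PCDH11Y contigs, dd_15181 and dd_9677, had no read in any pole cell and were held by 14 and 8 of the 53 non-pole cells. Contigs with 1 gene name may share reads, and over 10 cadherins with enough reads the median was -1.50.

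Contigs without a gene name were among the higher transcripts too. The share of cells holding dd_23400 differed by 98.1 percentage points, beside 94.3 for pitx. dd_23400 was at 58.95, 1616, 1682, 268, 339, 54.4 and 968 CPM, and all 7 pole cells were above the highest non-pole cell, at 41.7 CPM. dd_16466 was at 106.1, 955, 1719, 1399, 0.242, 605 and 951 CPM and was held by no non-pole cell, although it had 9 reads in them. Its share was 85.7% (42.1% to 99.6%) against 0 of 53 cells, whose interval reaches 6.72%.

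**Figure D3:**
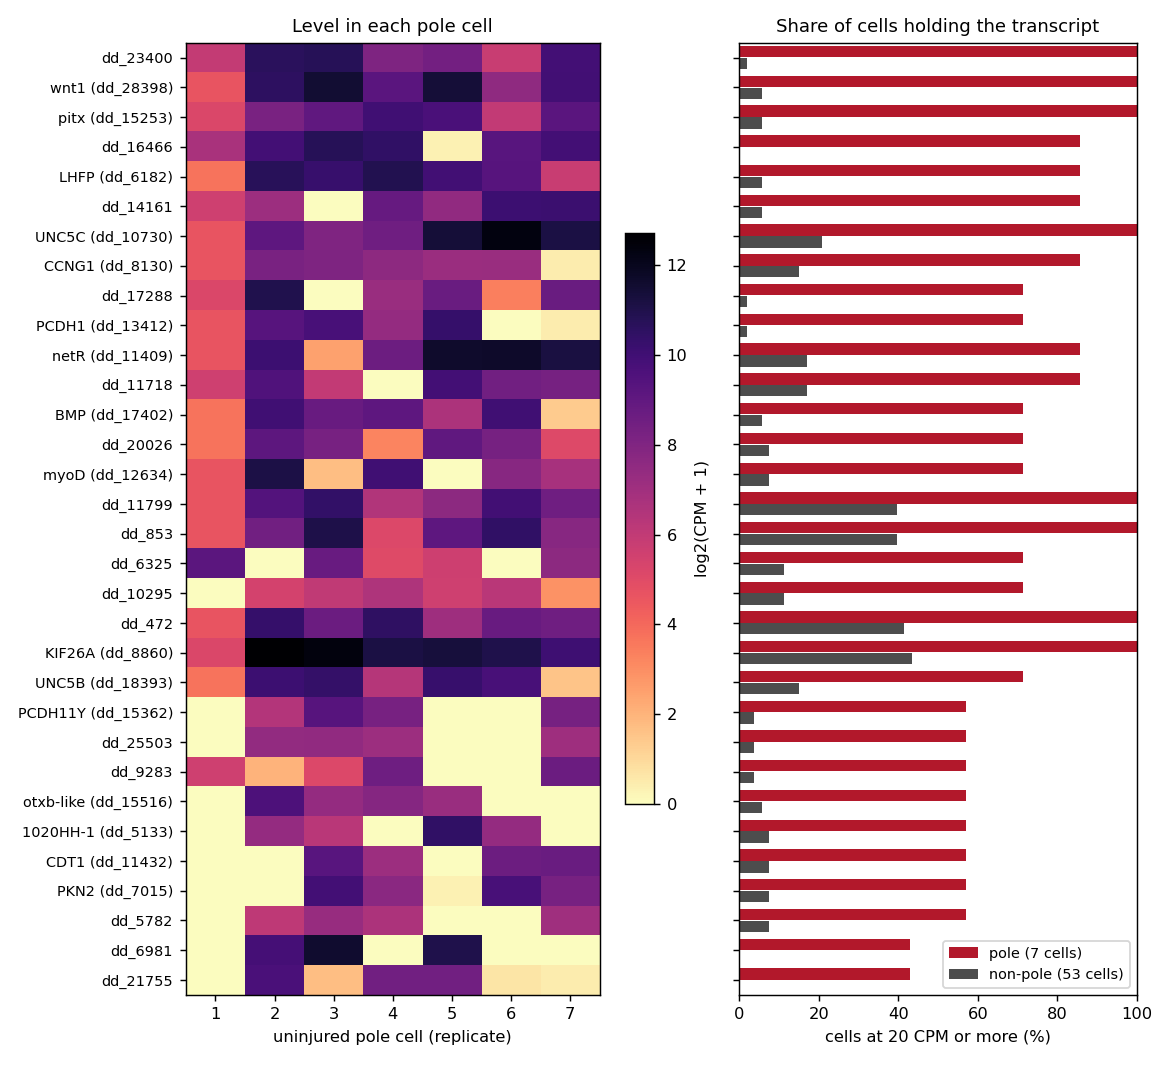
The 32 transcripts called higher whose exact share intervals do not overlap; left, log2(CPM + 1) in pole cells 1 to 7, to be read along a row since contig lengths differ; right, share of pole (red) and non-pole (grey) cells at 20 CPM or more. Pole cell 1 is the palest column, and rows such as PCDH1 and otxb-like show transcripts held by some pole cells only.

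Of the 32 transcripts with separate intervals, 25 are on the study's own list of pole transcripts and 16 have a gene name. That list was drawn in part from these same cells and is not independent evidence. Of its 186 contigs with enough reads, 45 were called higher and none lower, at a median log2 fold of 2.59. Names were given mostly to listed contigs, so the 33 named genes among the higher and 11 among the lower transcripts do not compare the 2 directions.

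Muscle genes were read in both groups, and none of the collagen or contractile contigs was called. Most of these contigs were widely held in both groups. A call needs a difference in the share of cells holding a contig, so it cannot show a change of level alone. The absence of calls therefore does not mean equal levels, and the levels are given below. The well screen used collagen in both groups. The summed level of 13 collagen contigs was 472 to 63472 CPM in pole cells (median 20320) and 124.98 to 172463 CPM in non-pole cells (median 66364), and 27 of the 53 non-pole cells were above every pole cell. Of the 13 contigs, 10 had a lower mean in pole cells and the median log2 fold was -1.49, beside -0.96 for all transcripts and 0.07 for the widely held ones, from -2.85 for COL1A2 (dd_840) to 0.64 for COL4A6 (dd_2337). Each of the 13 was held by 4 or more of the 7 pole cells.

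The collagens did not follow each other. The contigs COL4A6 (dd_1579) and COL24A1 (dd_2197) had log2 folds of 0.14 and -0.06, with pole cells 2 to 7 at 1668 to 5983 CPM and 1662 to 5602 CPM. COL2A1 (dd_649), COL1A2 (dd_832) and COL11A1 (dd_402) were at -1.49, -1.75 and -1.77. Pole cells 2 and 5 had the highest levels of dd_649, at 11510 and 9622 CPM, and of dd_402, at 7860 and 6550 CPM.

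The contractile genes were lower in mean in all 14 contigs with enough reads, at a median log2 fold of -1.81, and none was called. Their summed level was 755 to 30163 CPM in pole cells (median 3870) and 99.7 to 117749 CPM in non-pole cells (median 29515). MhcA (dd_432), a muscle myosin heavy chain, was at 189, 3061, 668, 50.6, 14538, 424 and 8.07 CPM and was held by all 53 non-pole cells at a median of 11811 CPM. TPM1 (dd_405), a tropomyosin, had a log2 fold of -3.07 with shares of 71.4% and 81.1%. Without the 12 non-pole cells and pole cell 1, which had under 5000 CPM of collagens, the median of the collagens was -1.64 and that of the contractile genes -1.95.

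**Figure D4:**
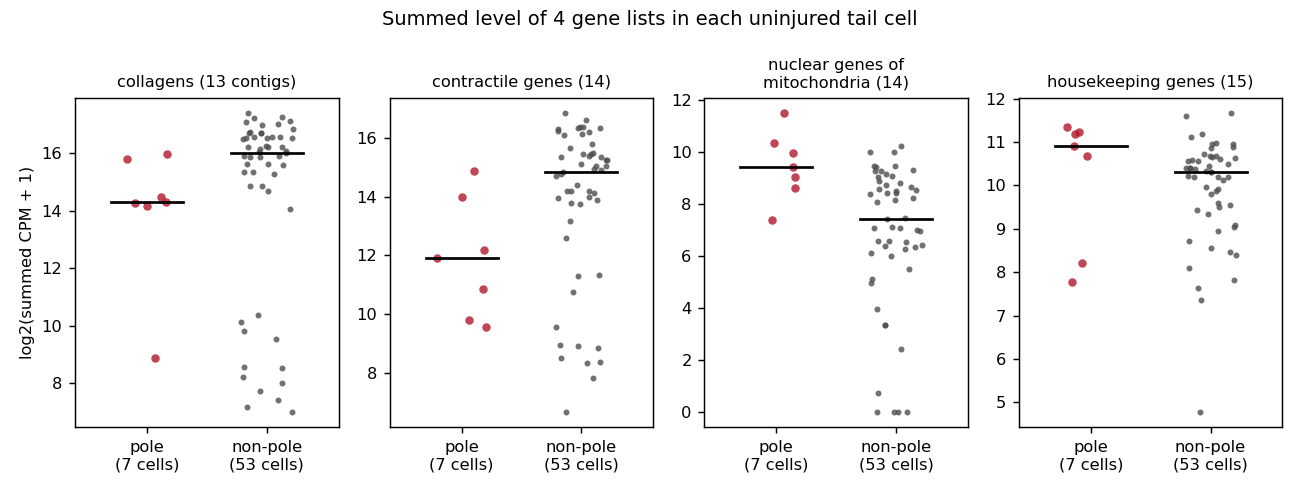
Summed level of 4 gene lists, as log2(summed CPM + 1), in each of the 7 pole cells (red) and 53 non-pole cells (grey), with medians as bars and a vertical scale of its own in each panel. Collagens and contractile genes had a lower median in pole cells and nuclear genes of mitochondria a higher one, while a lower cluster of 12 non-pole cells and pole cell 1 lay under 5000 CPM of collagens.

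Neural, cilia and cell division markers were read in both groups, and epidermal markers in non-pole cells only. The epidermal marker agat-1 had no read in the 7 pole cells and was held by 8 of 53 non-pole cells, up to 11573 CPM, 6 of which were among the 12 non-pole cells under 5000 CPM of collagens. Of 6 neural markers none was called (median -1.85), and their summed level was 0 to 1839 CPM in pole cells (median 133.8) and 0 to 3394 CPM in non-pole cells (median 269.9). The 8 cilia markers were at 0 to 1021 CPM in pole cells (median 35.5) and 0 to 1235 CPM in non-pole cells (median 0), with none called (median log2 fold -1.33). Of 8 cell division markers, CDT1, which licenses DNA replication, was called higher, held by 4 of 7 pole and 7.55% of non-pole cells, in cells sorted as non-dividing. Of the 8, 7 had a lower mean in pole cells, 5 were held by no pole cell, and the list median log2 fold was -1.76. The summed level of the 8 was at a median of 433 CPM in pole cells and 318 CPM in non-pole cells. That pole median is the value of pole cell 7, where CDT1 alone was at 412 CPM. Leaving out the 12 low-collagen non-pole cells, an alternative chosen after seeing the data, gave 0.662% higher transcripts, which include 94 of those above, and 0.901% lower, which include 89. With pole cell 1, also under that limit, left out too, 1.18% of 16736 transcripts (198) were higher, 89 of which are among those above. The lower ones were 0.837% (140), 87 of which are among the lower ones above.

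Of the lower transcripts, 72 were held by no pole cell and 22 had no read in any. Where under 50% of non-pole cells hold a transcript, the 40-point limit can be met only at a pole share of 0. The share of cells differed most for a contig without a name, dd_33016, which had 3 reads over pole cells and was held by 33 of 53 non-pole cells (62.3%, 47.9% to 75.2%), with a median of 169 CPM. dd_1021 was held by pole cell 2 alone, at 862 CPM, and by 40 of 53 non-pole cells, with a median of 703 CPM and a log2 fold of -3.30. All of the 10 lower transcripts with separate intervals are without a gene name.

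The named lower genes had overlapping intervals, and 4 of the 11 had no read in pole cells. qki, an RNA-binding protein gene, had no read in the 7 pole cells and was held by 49.1% of non-pole cells (35.1% to 63.2%), up to 870 CPM. At the same floor it would be 495-fold lower in pole cells, again not a bound. mmp19, a matrix metalloproteinase gene, had no pole read either and was held by 45.3% of non-pole cells (31.6% to 59.6%), 363-fold lower at that floor. Its call is lost with all counted reads as the total. TRIM9, a ubiquitin ligase gene known from neurons of other animals, and SARM1, an NAD-cleaving enzyme gene of axon loss, each had 1 read in pole cells and were each held by 49.1% of non-pole cells.

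ANK3, an ankyrin that ties membrane proteins to the cytoskeleton, differed in a graded way. It was at 153.3, 287, 0, 18.96, 0.726, 0.306 and 0 CPM in pole cells and was held by 81.1% of non-pole cells at a median of 517 CPM, with a log2 fold of -3.07. PRKG1 (dd_9039), a cyclic GMP-dependent kinase, was held by no pole cell and by 47.2% of non-pole cells, and a further contig of that name, dd_8296, was not called. The call of dd_9039 is lost with all counted reads as the total. Of a list of 10 genes taken from those the study places under nr4A control, which is not all of them, 9 had enough reads, of which qki, mmp19 and the unnamed dd_2972 were lower and none higher. The list median was -2.55, or -2.22 with genes without a pole read at 3 reads, and hspb1 and TUBA3D of the same list were at -0.06 and 0.47.

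**Figure D5:**
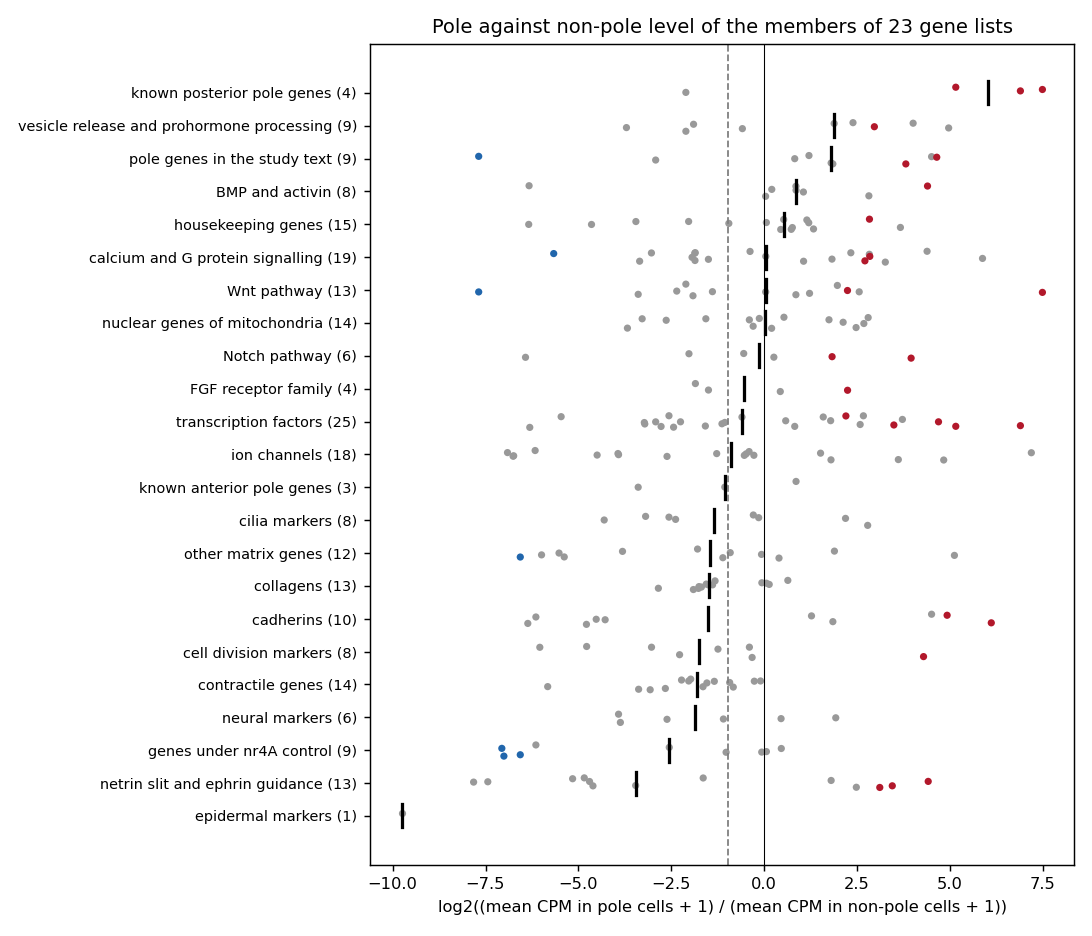
log2 fold of pole against non-pole mean CPM, with 1 CPM added to each, for the members of 23 gene lists (number with enough reads in brackets); red and blue points were called higher and lower, black bars are list medians, and the dashed line is the median of all transcripts, -0.96. The 4 known posterior pole genes were wnt1 of the well screen, pitx, islet1 and wnt11-2, and their median was 6.03. Without wnt1 it was 5.16, the value of islet1, with pitx above it and wnt11-2 at -2.10. Contractile genes lay below 0 throughout, and points far to the left had few or no pole reads and depend on the added 1 CPM.

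The remaining lists showed few calls. Of 19 calcium and G protein signalling genes, SCGN, a calcium-binding sensor protein, was called higher (held by 6 of 7 pole and 30.2% of non-pole cells, log2 fold 2.72), as was PLCG1, a phospholipase, while PRKG1 was lower. The call of PLCG1 is lost when any of pole cells 2, 3, 5 or 6 is left out. Of 9 genes of vesicle release and prohormone processing, LRRC4, a synaptic adhesion protein gene, was higher, at shares of 71.4% and 24.5%. None of 18 ion channel contigs was called, and 11 were held by no pole cell. Of 12 other matrix genes only mmp19 was called, and of 3 known anterior pole genes with enough reads none was (median -1.06).

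Genes used by all cells gave the background to these differences. Of 15 housekeeping genes PSMA1, a proteasome subunit, was called higher, at 4 of 7 pole cells and 13.2% of non-pole cells, and the list median was 0.53. That call is lost in 7 of 19 alternatives, 4 of which leave out a pole cell. The nuclear genes of mitochondria had a median of 0.04 over 14 contigs and no calls. Their summed level was 165 to 2876 CPM in pole cells (median 684) and 0 to 1179 CPM in non-pole cells (median 172), and 26 of the 53 non-pole cells were below every pole cell. The mitochondrial row of the table, which was left out of totals, had a median share of 32.4% of the counted reads of a pole cell and 18.6% of those of a non-pole cell. The shares overlapped widely, at 2.59% to 42.9% in pole cells and 0.394% to 60.1% in non-pole cells. The part of this row in the other differences was not tested.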

How the data were processed

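Single cells from uninjured Schmidtea mediterranea tail tips were made into Smart-seq2 libraries without molecular identifiers. The authors deposited raw read counts in a table of 26566 contigs, with 1 column per library. CASAVA 1.7.0, Trimmomatic 0.32 and Bowtie, whose version is not stated, are credited in the submitters' processing notes. Not given in the sources used here are the counting tool, its use of strand and its treatment of reads that match several contigs. A second deposited table holds the authors' SCDE comparison, with log2 fold estimates, bounds and Z scores in 6 columns. None of these values was used, and its list of 26560 contigs set which contigs entered totals. Left out were the mitochondrial row, with 22.9% of the counted reads of the uninjured libraries, contigs dd_4 (14.4%) and dd_7 (16.2%), the rRNA_5s row (0.00596%), the row called unidentified (0.000395%) and 1 without reads. The transcripts used held 46.6%.

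Rows sharing a contig number (156 numbers) were summed to 26399 transcripts. All 2145 pairs of uninjured libraries with at least 50000 reads, a pole with a non-pole library included, were set against each other by chi-square, and pairs under 10 per degree of freedom, all of them non-pole, were summed to 1 cell. Cells with at least 50000 reads were kept, and no doublet filter was applied to singly sorted cells. CPM were computed here from the deposited counts, each cell having equal weight. Transcripts needed 20 summed reads. The log2 fold is that of mean CPM plus 1, which understates the change of low transcripts. Each group is 1 sample, so no p-value was computed, and edgeR was used for scaling factors only. A gene without a read in a group was set at 3 reads over the pooled reads of the group (0.258 CPM in pole cells) for its fold. That floor follows the deep cells and does not bound the equal-weight mean, since 1 read in pole cell 1 alone gives 1.68 CPM.

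The transcripts named were the first 20 in each direction by share difference, the called members of 23 gene lists with up to 4 further members of each, and members of the study's pole list held by at least 6 pole cells or by none. Frz-d, nr4A, hspb1, MhcA, PRKG1 dd_8296 and the collagens COL4A6 (dd_1579 and dd_2337), COL24A1 and COL2A1 (dd_649) were named after their values were seen. Members and lists were chosen with earlier results of these data known. Gene symbols are the study's, mostly by likeness to human genes, and 609 of the 18077 transcripts had one. Alternatives changed the share and fold limits, depth minimum, thinning, scaling by TMMwsp (edgeR 4.0.16, R 4.3.3), total, pseudocount, filter, repeat libraries and the cells entered. The calling step was tested on simulated data. Python 3.11.15, pandas 2.3.3, numpy 2.4.6 and scipy 1.17.1 were used.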

Additional observations from a re-analysis of the deposited data

Results flagged for a closer look

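In 33 measures over the 7 pole cells, 5 had a cell whose gap to its nearest neighbour was over 0.568 of the whole range, and chance alone marks about 1 in 20 such groups. Pole cell 1 gave 3 of them. Its 10 most abundant transcripts took 36.7% of its reads on the transcripts used. The contig dd_4 took 38.98% of all its counted reads, and the cell held 47 of the higher transcripts other than wnt1. Pole cell 2 had 2876 CPM of summed nuclear genes of mitochondria, above every other cell of both groups. Pole cell 5 had 0.242 CPM of dd_16466, which the other 6 pole cells held. The mitochondrial row, which no comparison used, had a median share of 32.4% of the counted reads of a pole cell, against 18.6% for a non-pole cell. The ranges overlapped, at 2.59% to 42.9% and 0.394% to 60.1%.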

How the results depend on the processing

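No paired analysis was possible because replicate numbers only name cells and no result comes from a test. With 7 pole cells, 1 cell moves a share by 14.3 percentage points, and depth differs between cells. Of the transcripts called higher and lower, 55 and 95 were called without each pole cell in turn. Leaving out single pole cells gave 0.692% to 1.00% of transcripts higher, the most without pole cell 1 (181 transcripts), where 62.8% of calls were higher against 50.2%, and 0.592% to 0.804% lower. Minimums of 100000 and 200000 reads gave 1.05% (188) and 0.990% (176) higher, and leaving out cells under 5000 CPM of collagens gave 1.18% (198). These 3 also drop pole cell 1. A 60-point limit gave 0.105% (19). Leaving out pole cell 1 and the 3 non-pole cells with wnt1, an alternative chosen after seeing the data, gave 1.05% (189). Lower transcripts were 0.376% (68) with all counted reads as the total, which moved the median of all transcripts to -0.67, 0.901% without the low-collagen non-pole cells alone, also chosen after seeing the data, and 0.0221% (4) at 60 points.

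List medians of log2 fold moved by more than their jackknife SD over pole cells, which is near 0 for the nr4A and epidermal lists, as follows. Leaving out pole cells gave -1.39 to 0.27 for the Wnt pathway, -4.30 to -1.29 for cadherins, -2.56 to -1.66 for cell division markers, -1.83 to -0.81 for ion channels and -3.39 to -1.06 for anterior pole genes. A pseudocount of 10 CPM gave 4.73 for posterior pole genes, -1.57 for guidance, -0.70 for neural markers, -0.58 for cell division markers, -0.57 for genes under nr4A control and -6.45 for the epidermal marker. All counted reads as the total gave -2.16 for guidance, -1.81 for nr4A control and -7.63 for the epidermal marker, and TMMwsp gave 0.37 for FGF receptors, -2.62 and -9.15. Summed reads gave -0.72 for calcium and G protein signalling, -3.18 for other matrix genes, -3.28 for nr4A control and -9.19 for the epidermal marker. A minimum of 200000 reads gave 0.46 for calcium and G protein signalling, 0.72 for transcription factors, -2.87 for nr4A control and -10.13 for the epidermal marker, and 100000 gave -2.62 and -9.84 for the last pair. Thinning gave -2.36 and -9.74, repeat libraries kept apart -2.44 and -10.18, and leaving out low-collagen cells -2.87 and -6.34, with or without pole cell 1. Leaving out non-pole cells with wnt1 gave -2.62 and -9.84, as did leaving out pole cell 1 too, which gave 0.40 for transcription factors. Within that SD, leaving out pole cells gave -1.11 to 2.11 for vesicle release, -4.55 to -3.36 for guidance and -1.13 to -0.38 for transcription factors. The causes were not tested. Over 61 called named genes, 1024 of 1159 values stayed within the spread over pole cells, and none changed sign. That spread is wide for genes held by only some pole cells, such as islet1 at 0 to 1151 CPM, so large changes can stay within it. Calls also required a minimum fold, which makes a change of sign unlikely. Neither result therefore shows that the calls are stable.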
